A study of Mus musculus with 12 samples.

Results

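Carbonic anhydrases are zinc enzymes that interconvert carbon dioxide and water with bicarbonate and protons. In the large bowel they supply the bicarbonate and protons that surface epithelial cells exchange for luminal chloride and sodium, and in red cells they hold carbon dioxide for transport as bicarbonate. The family divides by site, with some members free in the cytosol, some held at the cell surface and some that have lost the catalytic zinc. The 7 genes described here, Car1, Car2, Car3, Car4, Car8, Car12 and Car13, were chosen by symbol, and all 7 were found in both the colon and the blood table of normalized counts (7 of 32689 colon genes and 7 of 25514 blood genes).

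RNA came from C57BL/6 male mice, 8 weeks old when obtained. Colitis resembling human ulcerative colitis (UC) was raised with DSS (dextran sulfate sodium), a sulfated sugar polymer that injures the gut lining. UC mice drank 1.5% DSS for 7 days and then plain water, controls drank water without DSS over the same time, and all were killed on day 8. The 12 total RNA-seq libraries are UC colon (mice 1, 2 and 4), control colon (mice 7, 8 and 9) and blood of the same mouse numbers, 3 libraries a group. The study chose the sequenced mice from a larger set on their disease activity index, and it asked which genes colitis changes in the colon and which of these changes appear in blood.

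Total counts ran from 69181049 to 103662306 per colon library and from 80867247 to 142536804 per blood library. One label field gives the tissue and another gives the opposite tissue in every sample. The groups here follow the tissue characteristic, and all 6 gut genes and all 10 red cell genes of the marker lists had TMM-scaled counts that did not overlap between the libraries so labelled (9 of the 10 red cell genes before scaling). S100a8 and Lcn2, genes of neutrophils and of inflamed epithelium, were read as a gauge of inflammation beside the disease labels. Normalized counts, which the authors made by dividing counts by 1 size factor per library, put colon S100a8 at 5370.44, 33.1 and 22.3 for the labelled UC mice 1, 2 and 4, against 1888, 75.6 and 13337 for the labelled control mice 7, 8 and 9. Colon Lcn2 stood at 1248, 96.7 and 99.8 for the former and at 1208, 117.2 and 9155 for the latter. In both tissues the 3 highest values of both genes belonged to mice 1, 7 and 9, of which only mouse 1 is labelled UC. The deposited normalized tables list the mice in the order 1, 7, 9, 2, 4 and 8. Whether labels were exchanged was not tested and no sample was regrouped, so groups are called "labelled UC" and "labelled control", values are given per library, and no comparison was built on the order of S100a8.

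Car13, Car1, Car3 and Car2 lie side by side on chromosome 3 (GRCm38), in 259044 bases from 14641727 to 14900770. Car13 is at 14641727 to 14663002 (plus strand), Car1 at 14766216 to 14808368 (minus strand), Car3 at 14863512 to 14872523 and Car2 at 14886273 to 14900770 (both plus strand). These 4 encode cytosolic enzymes. Car4 lies on chromosome 11 (84957786 to 84966044, plus strand) and encodes an enzyme tethered to the outer face of the cell membrane. Car12, on chromosome 9 (66713686 to 66766845, plus strand), encodes a transmembrane enzyme, and Car8, on chromosome 4 (8143362 to 8239041, minus strand), encodes a relative that does not hydrate carbon dioxide.

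The catalytic zinc is held by 3 histidines, which in Car2 are encoded by codons 94, 96 and 119. The stretch around the first pair of these codons shows how the 7 genes differ at the site that defines the family. Each stretch lies within 1 coding exon, exon 4 in Car4 and Car12 and exon 3 in the other 5, on GRCm38 with the GENCODE M21 transcripts. The capitals mark the codons aligned with Car2 codons 94 and 96.
Car1: ctcactcagttcCATtttCACtggggc
Car2: ttgatccagtttCACtttCACtggggc
Car3: cttcgccaattcCATcttCACtggggc
Car13: ttgcggcagttcCATttgCACtggggg
Car4: gctgtacagttgCACctgCACtggtca
Car12: gcagagcagctgCACttgCACtggggg
Car8: ctgtatgaagttAGAtttCACtgggga
The stretches lie at chr3:14776275-14776301 (Car1, minus strand), chr3:14895057-14895083 (Car2), chr3:14866838-14866864 (Car3), chr3:14650694-14650720 (Car13), chr11:84964155-84964181 (Car4), chr9:66747635-66747661 (Car12) and chr4:8221607-8221633 (Car8, minus strand). At both places 6 of the genes keep histidine codons (CAC or CAT). Car8 differs from Car2 there by C280A, A281G and C282A, counted from the first base of the Car2 coding sequence, so that its first marked codon is AGA, an arginine codon. The codon aligned with Car2 codon 119 is a histidine codon in all 7. Across the 21 pairs of members, aligned coding bases were 43.8% to 64.6% identical, and the longest identical run was 30 bases, between Car2 and Car13. No exon base of the 7 genes was shared with another annotated gene.

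The most abundant member differed between colon and blood. Per kilobase of exon, Car1 was the most abundant carbonic anhydrase RNA in each colon library and Car2 in each blood library. Levels between genes are given as CPM per kb, that is CPM after TMM scaling over all 12 libraries, divided by the length of the merged exons. In the colon, Car1 averaged 1549 ± 1198 CPM per kb (SD, n = 6), Car4 144.1 ± 70.6 and Car2 121.6 ± 73.7. Far below them came Car13 (3.89 ± 0.884), Car3 (3.63 ± 5.26), Car8 (3.23 ± 4.75) and Car12 (2.497 ± 2.68). Car1 lay above Car4 in 6 of 6 colon libraries and Car2 above Car13 in 6 of 6, while Car4 exceeded Car2 in 5 of 6. Whether Car4 and Car2 differ was not tested. The 4 lower genes overlapped one another, and Car8 was above Car12 in 3 of 6 libraries. With the length of the longest transcript in place of merged exons, their order became Car3, Car12, Car13 and Car8.

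**Figure D1:**
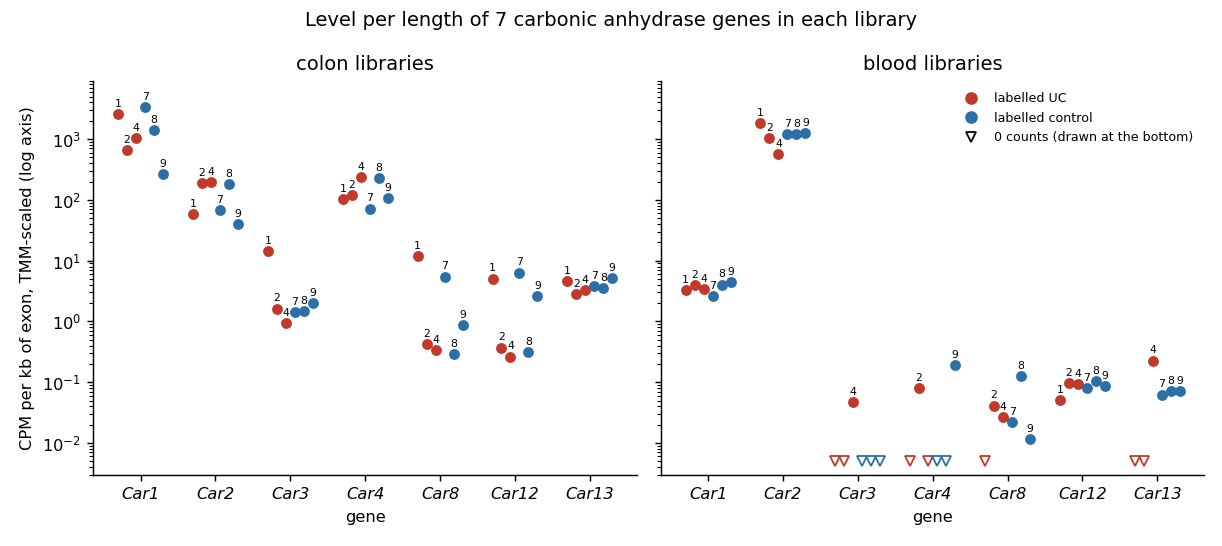
CPM per kb of exon (log axis) for the 7 genes in each colon library (left) and blood library (right), with mouse numbers beside the points, red for labelled UC and blue for labelled control. Open triangles at the bottom are libraries with 0 counts. Car1, Car4 and Car2 lie well above the other genes in the colon, and Car2 alone is high in blood.

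In blood, Car2 averaged 1181 ± 410 CPM per kb (SD, n = 6), with Car1 at 3.61 ± 0.644 and Car12 at 0.0853 ± 0.0192. The order Car2, Car1, Car12 held in 6 of 6 libraries for its first step and in 6 of 6 for its second. Car12 exceeded Car13 in 5 of 6. Car13, Car4, Car8 and Car3 were near or at 0 and could not be ordered.

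Summed per kb over 16 carbonic anhydrase genes, that is the 7 and the 9 others annotated, Car1, Car2 and Car4 together made up 94.1% to 99.2% of the family's RNA in a colon library. Car1 alone took 92.4%, 67.0% and 69.5% in mice 1, 2 and 4 and 95.3%, 76.5% and 61.0% in mice 7, 8 and 9. Mouse 9 had the lowest share of Car1 and the highest of Car4 (24.0%), and mouse 2 the highest share of Car2 (19.5%). In blood, Car2 took 99.2% to 99.8% in each library. By mean normalized count, with no allowance for length, Car1 ranked 13 among 32689 colon genes and Car2 ranked 36 among 25514 blood genes.

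**Figure D2:**
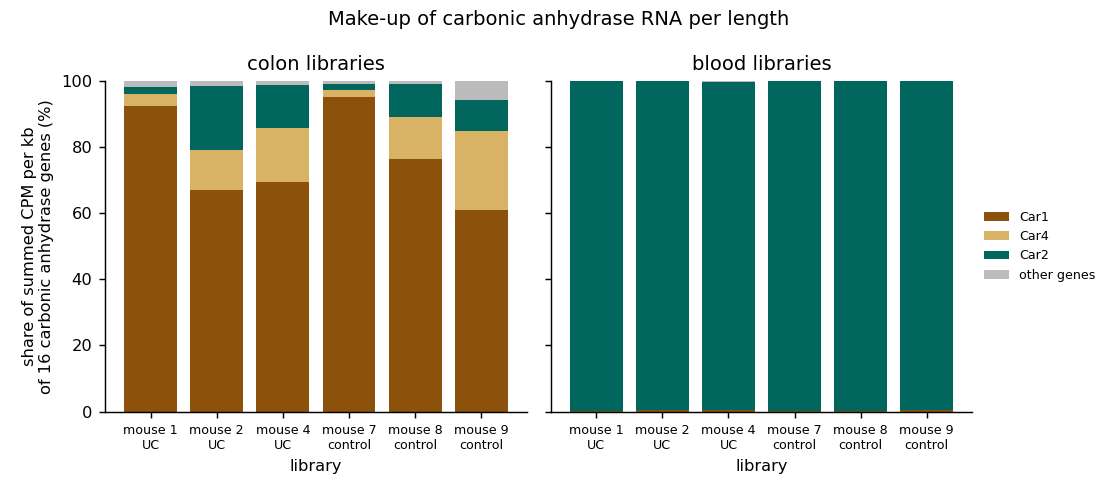
Share of the summed CPM per kb of 16 carbonic anhydrase genes taken by Car1, Car4, Car2 and all others, 1 bar a library. Car1 takes 61.0% to 95.3% of each colon bar, and Car2 takes at least 99.2% of each blood bar.

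Car1 encodes a cytosolic enzyme of red cells and of colon epithelium. Its normalized counts in the colon were 580934, 149804 and 234522 in mice 1, 2 and 4, labelled UC, and 740809, 308201 and 60215 in mice 7, 8 and 9, labelled control. Mice 1 and 7 were high and mouse 9 low, and the labelled groups overlapped. The log2FC of labelled UC against labelled control was -0.23 (SE 0.90; edgeR quasi-likelihood, adjusted p 0.9999). Without mouse 7 it was 0.78, without mouse 2 it was 0.12, and without mouse 1 it was -0.97. The gene has annotated transcripts with different starts, which these counts per gene do not separate.

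Car2 encodes the fast cytosolic enzyme found in most secretory epithelia. It had 25227, 84528 and 86525 normalized colon counts in mice 1, 2 and 4 and 28484, 77694 and 17431 in mice 7, 8 and 9. Mice 2, 4 and 8 were high, at 77694 or more, and mice 1, 7 and 9 low, at 28484 or less, so each labelled group held high and low libraries. The log2FC was 0.64 (SE 0.68; edgeR adjusted p 0.9999), and it was 1.51 without mouse 8 and 0.28 without mouse 9.

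Car4 encodes the enzyme on the brush border of colonocytes. Normalized colon counts were 36927, 42502 and 86056 in mice 1, 2 and 4 and 24686, 79828 and 37313 in mice 7, 8 and 9. Mice 4 and 8 were high and the other 4 low, again across the labels, and the log2FC was 0.20 (SE 0.52; edgeR adjusted p 0.9999). It was -0.26 without mouse 4 and -0.11 without mouse 7. Across the 6 libraries the highest value of Car4 was 3.49 times the lowest, against 4.96 times for Car2 and 12.3 times for Car1.

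Car12 encodes a transmembrane enzyme facing out of the cell. Its normalized colon counts were 6944, 516 and 368 in mice 1, 2 and 4 and 8475, 427 and 3570.45 in mice 7, 8 and 9. The highest value was 23.0 times the lowest, with mice 1, 7 and 9 high and mice 2, 4 and 8 low. The log2FC was -0.69 (SE 1.37; edgeR adjusted p 0.9999) with all libraries and 0.39 without mouse 7.

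Car8 encodes the relative without zinc catalysis whose AGA codon is shown above, known as a partner of the inositol trisphosphate receptor. Normalized counts were 8365, 301 and 241 in mice 1, 2 and 4 and 3676, 200.4 and 597 in mice 7, 8 and 9. It had the widest range of the 7 genes, 41.7 times from mouse 8 to mouse 1. The log2FC was 0.97 (SE 1.59; edgeR adjusted p 0.9999) with all libraries and -2.48 without mouse 1.

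Car3 encodes a cytosolic enzyme of low activity, abundant in fat and skeletal muscle. Normalized counts were 7408, 851 and 499 in mice 1, 2 and 4 and 708, 747 and 1034 in mice 7, 8 and 9. A single library, mouse 1, stood apart. The log2FC of 1.80 (SE 0.99; edgeR adjusted p 0.9999) was the largest of the 7 and turned to -0.31 without that mouse. The adipocyte genes had a summed normalized count of 19171 in mouse 1 and of 1818 to 4405 in the other 5 colon libraries, with all 7 listed genes in the table. Cfd, a serine protease of the complement system secreted by fat cells, had 7955 in mouse 1 and 331 to 1216 elsewhere, and Fabp4, a fatty acid carrier of fat cells, had 5422 against 701 to 1915. The listed genes were not alike. Over the 7, the log2FC of labelled UC against labelled control colon ran from -0.09 to 2.19, with 6 above 0. The skeletal muscle genes, 5 of 6 in the table, summed to 1861 in mouse 1 and to 970 to 2001 over the 5 other libraries, so mouse 1 lay within their range. Of these, Acta1 ran from 411 to 1146 and Ckm from 66.6 to 897. The part of fat in the Car3 value was not tested.

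Car13 encodes a cytosolic enzyme expressed broadly at a low level. Its normalized counts were 1906, 1192 and 1378 in mice 1, 2 and 4 and 1554, 1458 and 2168 in mice 7, 8 and 9. It varied least of the 7, with the highest value 1.82 times the lowest. The log2FC was -0.22 (SE 0.25; edgeR adjusted p 0.9999).

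**Figure D3:**
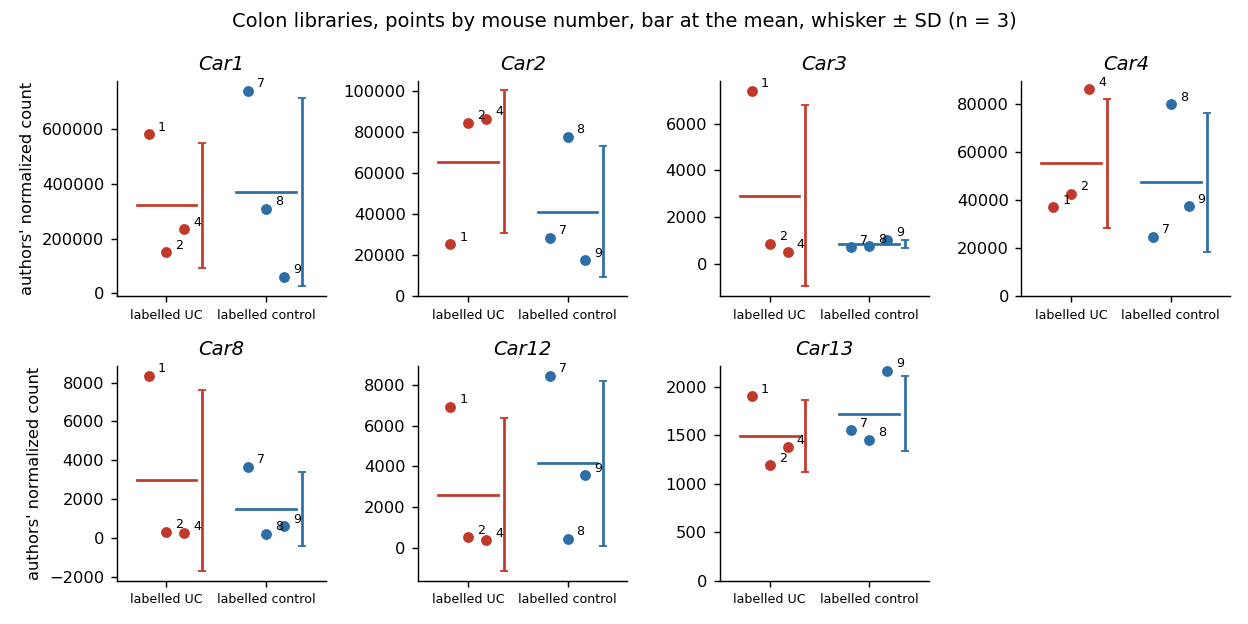
Authors' normalized counts of each gene in the 6 colon libraries (linear axes), with points by mouse number, bars at the mean and whiskers of 1 SD either way (n = 3). The labelled groups overlap in each of the 7 panels, and mouse 1 stands apart for Car3.

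For labelled UC against labelled control colon, a significantly differentially expressed (SDE) gene was one with an absolute log2FC over 1 and an edgeR adjusted p (Benjamini-Hochberg) of 0.05 or less. None of the 7 members, all of which passed the filter on low counts, was SDE, where 0.0045% of 22238 genes tested were called (1 gene). None of the 7 had an unadjusted p under 0.05, as 313 of all genes tested did. DESeq2 called 0 of 7 and 6 genes in all, and limma-voom called 0 of 7 and 0 in all, so that a count of 0 members lies near the background. The labelled groups overlapped for all 7, while they did not overlap for 5.41% of all genes tested. The median log2FC of the 7 was 0.20, against -0.01 over all genes. The SE of the members ran from 0.25 to 1.59, which limits what 3 libraries a group could show. Each labelled group also held colon libraries high and low in S100a8 and Lcn2, as given above.

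In blood, 4 of the 7 members passed the filter. Car2 had 243784, 142900.0 and 74968 normalized counts in mice 1, 2 and 4 and 156573, 162410.0 and 164982 in mice 7, 8 and 9. The libraries labelled UC held both the highest and the lowest value, and the log2FC was -0.07 (SE 0.44; edgeR adjusted p 0.9998), or 0.25 without mouse 4. Car1 had 226, 277 and 234 in mice 1, 2 and 4 and 173, 282 and 304 in mice 7, 8 and 9, with a log2FC of -0.04 (SE 0.28). Car12 had 21.1 to 44.8 normalized counts in all 6 libraries (log2FC -0.16, SE 0.47), and Car13 had 0 in mice 1 and 2 and 7.66 to 28.6 in the others (log2FC 0.21, SE 1.43, and -6.13 without mouse 4). None of the 4 was SDE, none had an unadjusted p under 0.05, and the labelled groups overlapped for each of them. Over all 16759 blood genes tested, 0% were called, 241 had an unadjusted p under 0.05, DESeq2 called 6, and the labelled groups did not overlap for 6.5%. The other 3 were counted in few libraries. Car3 had counts in mouse 4 only (9 counts), Car4 in mice 2 and 9 (6 and 25 counts), and Car8 in all but mouse 1 (3 to 24 counts).

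**Figure D4:**
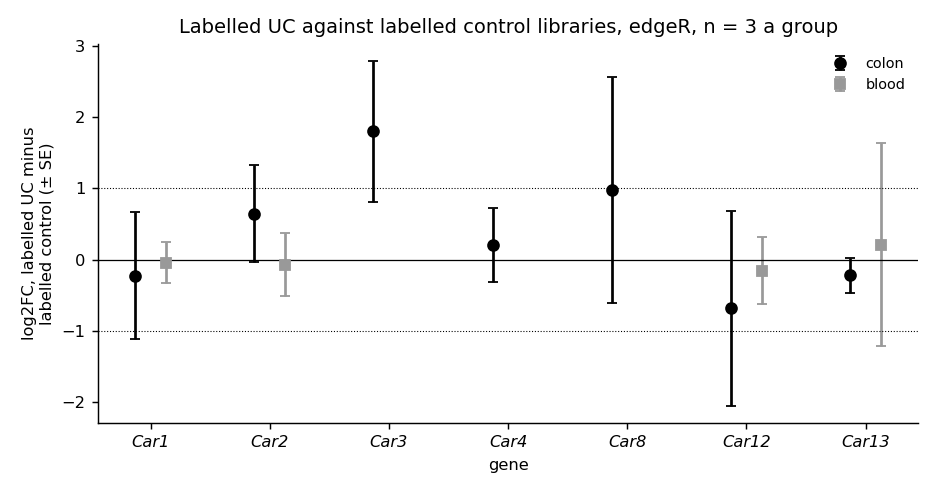
Log2FC of labelled UC against labelled control from edgeR, with bars of 1 SE either way, for 7 genes in colon (black circles) and 4 in blood (grey squares), 3 libraries a group. Dotted lines mark an absolute log2FC of 1. No gene was called, and Car3 in the colon has the largest value, 1.80.

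The difference between the UC effects in colon and blood was tested as an interaction over 23258 genes, of which 0.0043% (1 gene) had an adjusted p of at most 0.05. Car1, Car2, Car12 and Car13, the members tested in both tissues, gave differences of -0.19 (SE 1.02), 0.71 (SE 0.87), -0.53 (SE 1.59) and -0.52 (SE 1.298), each with an edgeR adjusted p of 1.00. Car3, Car4 and Car8 gave -3.91 (SE 3.90), 1.82 (SE 1.88) and 2.17 (SE 2.36), also with an edgeR adjusted p of 1.00, but these rest on blood counts near 0. Blocking on mouse number, since both tissues came from the same mice, left 0 genes called over all genes.

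Between tissues the members did differ. On the scale of all 12 libraries, 6 of 7 were higher in colon and 1, Car2, was higher in blood, where 37.7% of 23258 genes were called higher in colon and 20.8% higher in blood. Colon and blood libraries did not overlap for any of the 7, as was so for 53.5% of all genes tested. Car3, Car4 and Car8 did not pass the filter in blood and entered this test only through their colon counts. Their direction was thus set in advance, and their calls carry no test. Extraction kit and depletion kit differed with the tissue (the kits deplete different abundant RNAs), so tissue and kit cannot be told apart. The fit used group means without pairing the tissues of a mouse, so its SE and p-values treat the 12 libraries as independent. The log2FC of colon against blood was 8.74 for Car1 (SE 0.71, edgeR adjusted p 1.292e-06) and 4.83 for Car12 (SE 0.91, adjusted p 6.265e-04). For Car2 it was -3.31 (SE 0.47, adjusted p 8.947e-05), higher in blood in 6 of 6 mice on the TMM scale. Without mouse 1 the log2FC of Car12 was 3.43, and without mouse 7 it was 4.25 for Car12 and 8.13 for Car1. Of the 4 members that passed the filter in blood, Car12 had the largest adjusted p. Library size alone in place of TMM moved the median log2FC of all genes from 0.46 to 2.57 and the split of calls from 8759 higher and 4845 lower to 17887 higher and 1757 lower. Under it Car2 stayed higher in blood by test (log2FC -1.18), but its share of all counts, 0.0667% to 0.216% in blood and 0.0224% to 0.104% in colon, overlapped between tissues, and in mouse 4 the share was higher in colon (0.101%) than in blood (0.0667%). RNA of the 7SL genes took 35.9% to 65.4% of the blood counts and 4.90% to 6.50% of the colon counts.

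For the members that were almost absent from blood, counts were pooled over the 6 libraries of a tissue, and colon was set against blood on the TMM scale and by total counts. Car4 had 316443 counts in colon and 31 in blood, a ratio of 3162 by TMM and of 14153 by total counts. Its log2FC ran from 11.28 to 15.44 when 1 mouse was left out, with the highest value without mouse 9, which held 25 of the 31 blood counts. Car3 had 11705 and 9 counts, a ratio of 403 by TMM and of 1803 by total counts, with 7821 of the colon counts in mouse 1 and all 9 blood counts in mouse 4. Without mouse 1 its log2FC was 8.84 and without mouse 4 it was 13.22. Car8 had 13200 and 46 counts, a ratio of 88.9 by TMM and of 398 by total counts, and 8832 of the colon counts came from mouse 1. Its log2FC of 6.50 became 4.48 without that mouse. Car13 had 9847 and 64 counts, a ratio of 47.7 by TMM and of 213 by total counts, and 35 of the blood counts came from mouse 4. Its log2FC of 5.68 became 9.45 without that mouse. All 4 stayed higher in colon on both scales and without any 1 mouse. For Car3, Car4 and Car8 that direction was set in advance by the filter, so its stability carries no test. The size of the difference rests on few blood counts for all 4.

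The ratio of Car1 to Car2 within a library does not depend on how libraries are scaled. Per kb it was 44.7, 3.44 and 5.26 in colon of mice 1, 2 and 4 and 50.5, 7.70 and 6.70 in colon of mice 7, 8 and 9. In blood it was 0.00180, 0.00376 and 0.00606 in mice 1, 2 and 4 and 0.00214, 0.00336 and 0.00357 in mice 7, 8 and 9. The colon ratio exceeded the blood ratio in 6 of 6 mice, by 11.79 on the log2 scale. Since both genes were singled out as the most abundant members of their tissue, this ratio is a description and carries no test. Within the colon, mice 1 and 7 stood apart from the other 4, and within blood the range was narrower.

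Blood left in the colon and gut RNA in the blood were gauged from genes of the other tissue. The red cell genes, 10 of 10 in the table, summed to 11278 to 33720 normalized counts in the colon, mostly Tfrc, the transferrin receptor of dividing cells (7075 to 32897). Alas2, the first enzyme of haem synthesis in red cells, had 497 to 4595 counts in colon and at least 4678666 in blood. Scaled by Alas2, blood in the tissue would give up to 0.281 counts of Car1 and up to 102 counts of Car2 in a colon library, or up to 0.453% of the Car2 counted there. The estimate for Car2 depended on the gene used, with up to 0.574% by Slc4a1, 1.24% by Rhag, 14.5% by Ank1, 63.6% by Tal1 and, in at least 1 library, more than all Car2 counted by Klf1 or Tfrc. For Car1 it stayed under 1% by each of the 10 genes, with 0.699% by Tfrc the highest. In the other direction, the gut genes were led in colon by Krt8, a keratin of simple epithelia (303492 to 463694 normalized counts), and Lgals4, a galectin of gut epithelium (207363 to 276762). Krt8 had 0 to 88 counts in blood against at least 330742 in colon. Scaled by Krt8, gut RNA would give up to 19.8 counts of Car1 in a blood library, or up to 10.8% of those counted, and 5.62 of 6 counts of Car4 in mouse 2 and 10.8 of 25 in mouse 9. By Krt18, another such keratin, the Car1 estimate reached 42.8%, by Lgals4, Epcam and Cdh17 it passed the Car1 counted in at least 1 library, and by Cdx2, at 0 in all blood libraries, it was 0. In blood of mice 4 and 7, Krt8 had 0 counts beside 286 and 226 counts of Car1. The estimates thus differed with the gene used, and the part of gut RNA in the Car1 and Car4 counted in blood was not tested.

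Epithelial genes were read beside Car1, Car2 and Car4. In bulk tissue, fewer cells of a type and less RNA per cell cannot be told apart. The absorptive colonocyte genes, 10 of 10 present, summed to 413949, 297386 and 477209 normalized counts in mice 1, 2 and 4 and to 545405, 473276 and 264815 in mice 7, 8 and 9. This list contains Slc26a3, the apical exchanger of chloride for bicarbonate, which had 25107, 72441 and 132812 in mice 1, 2 and 4 and 35702, 128020.0 and 27095 in mice 7, 8 and 9. Slc26a3 was thus lowest in mice 1, 9 and 7, the 3 libraries lowest in Car2. The sum of the list did not follow Car2. It was highest in mouse 7, which was low in Car2. In mouse 2, which was high in Car2, the sum was above that of mouse 9 only. Slc6a14, an amino acid carrier of the same list, ran only from 38258 to 93830. Goblet cell genes (7 of 7 present) summed to 1108080 to 2163320, led by the mucus proteins Fcgbp (481287 to 726200) and Muc2 (151064 to 1019390). Stem cell genes (5 of 5) summed to 1395 to 5613, with the matricellular protein gene Smoc2 at 775 to 2603 and the Wnt target Axin2 at 457 to 1994. Smooth muscle genes (5 of 5) ran from 100737 to 448946 in sum, with Myh11 at 38540 to 186120.0 and Acta2 at 24515 to 94404. How far any of these cell types contributes to the members' values was not tested.

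Immune and squamous genes were read beside Car12 and Car8. The neutrophil genes, 8 of 8 present in colon, summed to 34371, 7531 and 16579 in mice 1, 2 and 4 and to 26336, 17813 and 66967 in mice 7, 8 and 9, led by Ly6g (7350 to 25479) and S100a9 (16.5 to 18061). Ly6g was higher in colon than in blood (log2FC 2.90), unlike the other 7 genes of the list (-5.55 to -7.05). Without it the sums were 12877, 181 and 224 in mice 1, 2 and 4 and 5512, 358 and 41488 in mice 7, 8 and 9. The squamous epithelium genes, 6 of 6 present, summed to 313, 130 and 96.5 in mice 1, 2 and 4 and to 335, 144 and 742 in mice 7, 8 and 9, led by the desmosome gene Dsg3 (0 to 487) and the basal keratin Krt14 (54.0 to 218). Mice 1, 7 and 9 were the highest 3 of both sums and of Car12, and of Car8 as well. Mouse 9 led both marker sums while mice 1 and 7 led both members. The part of these cells in Car12 and Car8 was not tested.

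In blood, Car2 was read beside red cell genes, 10 of 10 present. They summed to between 4019770 and 8157280 normalized counts, led by Alas2 (3828110 to 7241870) and Slc4a1. Car2 was lowest in mouse 4 and highest in mouse 1, as was the red cell sum. Between these the orders differed. In mouse 2 the red cell sum (7618700) was below that of mouse 1 only, while Car2 (142900 normalized counts) was above that of mouse 4 only. For each 100 counts of Alas2 there were 3.37, 2.003 and 1.96 counts of Car2 in mice 1, 2 and 4 and 3.59, 2.42 and 2.80 in mice 7, 8 and 9, so the labelled groups overlapped in this ratio too. Among other cells of blood, the neutrophil genes S100a9 (21538 to 257975) and S100a8 (8642 to 101913) varied more than 10-fold.

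For each member with a mean of at least 100 counts and a range of at least 1 log2 unit, the 3 genes with the closest profile were found by the root mean square difference of log2 CPM, each gene centred on its mean over the tissue's 6 libraries, among genes with the same minimum (15880 in colon, 11196 in blood). These are descriptions over 6 libraries and carry no test. Car3 was closest to Adipoq (0.14), the fat cell hormone adiponectin, then to Cyp2e1 (0.36) and to Plin1 (0.37), a coat protein of fat droplets. Adipoq had 1309 normalized counts in mouse 1 and 76.7 to 144 in the other colon libraries. Car1 was closest to Gm5843 (0.29), Mpst (0.29), a sulfur transferase that makes hydrogen sulfide, and Ugdh (0.39), which makes the glucuronate donor. Car2 was closest to Gal3st2b (0.14), Clps (0.17) and 9330188P03Rik (0.18), and Car4 to Spata13 (0.12), Otub1 (0.13) and Nlrp9b (0.14). Car12 was closest to Gpat3 (0.27), an enzyme of glycerolipid synthesis, Pcsk5 (0.30), a proprotein convertase, and Arg2 (0.35), the mitochondrial arginase. Car8 was closest to Ntrk2 (0.32), the receptor of brain-derived neurotrophic factor, Cubn (0.33), an endocytic receptor, and Padi2 (0.36), which converts arginine in proteins to citrulline. In blood, Car2 was closest to Fam104a (0.12), Cat (0.12), which encodes catalase, and Ube2h (0.13).

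**Figure D5:**
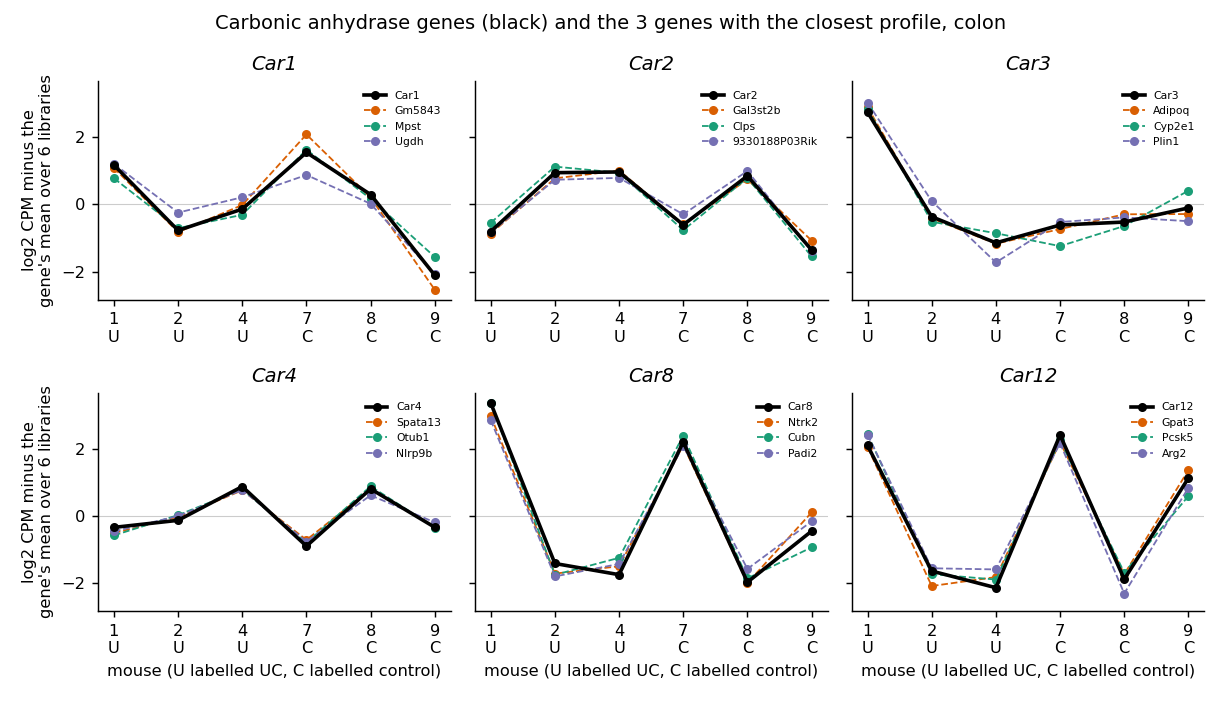
Log2 CPM in the colon, centred on each gene's mean over 6 libraries, for 6 carbonic anhydrase genes (black) and the 3 genes closest to each (coloured), by mouse, with U for labelled UC and C for labelled control. Car3 and Adipoq peak in mouse 1 alone, and Car8 and Car12 are highest in mice 1 and 7.

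The other carbonic anhydrase genes and the carriers that move bicarbonate, protons and chloride were tested in the same fits. Of the 9 other family genes, 6 passed the filter in colon and 3 in blood, and of the 17 transport genes, 16 and 11 did. In neither tissue was any SDE, and none had an unadjusted p under 0.05, where all genes tested gave 1 SDE gene and 313 under 0.05 in colon and 0 and 241 in blood, so these counts lie near the background. Median log2FC in the colon was 0.24 for the other family genes and 0.21 for the transport genes. Car9, the transmembrane enzyme induced by low oxygen, was the most abundant of the other family genes in colon, with 5416, 3541 and 4597 normalized counts in mice 1, 2 and 4 and 4569, 5158 and 5852 in mice 7, 8 and 9. It varied by 1.65 times, less than any of the 7 members, and per kb (8.38 to 14.1 CPM) it exceeded Car13 in each colon library. Car5b, a mitochondrial form, had 107.1 to 421 normalized counts, and Car11, a relative without activity, had 70.6 to 166. In blood the highest of the 9 were Car5b (22.1 to 66.2), Car7 (6.89 to 52.7) and Car15 (0 to 47.5).

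Among the carriers, the colon was led by Slc26a3, whose values are given above, Atp12a and Slc16a1. Atp12a, a proton and potassium pump of the distal colon, had 18106, 28739 and 70449 normalized counts in mice 1, 2 and 4 and 22171, 58496 and 22222 in mice 7, 8 and 9. Slc16a1, the carrier of butyrate and lactate with a proton, had 21811, 45781 and 46102 in mice 1, 2 and 4 and 24144, 42585 and 20966 in mice 7, 8 and 9. Like Car2, Slc16a1 was high in mice 2, 4 and 8 and low in the others. The log2FC of labelled UC against labelled control colon was 0.25 for Slc26a3 (SE 0.78), 0.17 for Atp12a (SE 0.61) and 0.36 for Slc16a1 (SE 0.40), each with an edgeR adjusted p of 0.9999. In blood the list was led by Slc4a1, the red cell exchanger of chloride for bicarbonate (53572 to 402160.0), Aqp1, a channel for water (4777 to 9544), and Rhag, the Rh-associated glycoprotein (3928 to 7254). Per 100 counts of Slc4a1 there were 60.6 to 139.9 counts of Car2. Against blood, 12 of the 17 transport genes were higher in colon and 3 were higher in blood, and of the 6 other family genes tested 3, among them Car9, were higher in colon and 0 in blood, beside 37.7% and 20.8% of all genes tested. Genes that passed the filter in only 1 tissue entered through that tissue, as the 3 family genes called did through the colon. The direction of such genes was set in advance, so these counts carry no test.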

How the data were processed

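Total RNA-seq of 6 colon and 6 blood libraries was used. Per the labels and methods, the authors trimmed reads, removed ribosomal reads, mapped the rest with STAR 2.5.2a to GRCm38, quantified them with StringTie 1.3.4c on Ensembl 92 without a strand setting, and deposited counts derived from transcript coverage, whole numbers but no tally of reads. The deposited normalized tables, a signal scale, hold the count divided by 1 DESeq2 size factor per library, made separately for each tissue, and these values are never set across tissues.

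Groups came from the disease state and tissue labels, and mouse numbers from the titles. Each tissue was fitted alone in R 4.3.3 with edgeR 4.0.16 (TMM, filterByExpr, glmQLFit, glmQLFTest), and colon was set against blood, with the interaction, over all 12 libraries. P-values were adjusted over all genes tested. SE is the log2FC over the square root of F. Alternatives were RLE and library size scaling, other filters and thresholds, DESeq2 1.42.0, limma-voom (limma 3.58.1), the genes of the normalized tables, 1 fit of all libraries, the mouse number as a block and leaving out each mouse. Exon lengths and coding sequences came from GENCODE M21. For log2 CPM the prior count was 2.

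Colon and blood came from the same 6 mice in the study's design. Deviations from labelled group means correlated between same-numbered libraries at r = 0.0073 to 0.233 over 15802 genes, which are not independent replicates. In simulated counts with 200 genes changed 4-fold, edgeR recovered 94.4% of those tested in the colon comparison (23169 genes, 6 false calls), 98.8% in the blood comparison (19590 genes, 8 false calls), 78.2% in the interaction (21836 genes, 8 false calls) and 98.8% between tissues (21788 genes, 0 false calls). The simulated dispersion was fixed at 0.05, lower than in the data. There its square root was 0.503 in the colon fit, 0.417 in the blood fit and 0.499 over all 12 libraries. The simulation thus checks the code and does not give the power of these comparisons.

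Named genes were the 7 members everywhere, the 3 most abundant per tissue of the other family genes and of the transport genes and any of these called, S100a8 and Lcn2, the 3 closest profiles per member, and the top 2 of each marker list. Carry-over estimates, their reference genes, the neutrophil sum without Ly6g and the ratios of Car2 to red cell genes were added after values were seen. Members, lists and rules were chosen with earlier results of these data known.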

Additional observations from a re-analysis of the deposited data

How the results depend on the processing

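The UC comparison had 3 libraries a group and wide errors, and S100a8 did not follow the disease labels. No member was called under the alternatives run, which covered all 7 members in colon and Car1, Car2, Car12 and Car13 in blood and in the difference of effects. Colon against blood kept its direction and call for all 7 members in all 98 refits (56 with another setting, 42 without 1 mouse), with adjusted p of at most 0.0384. For Car3, Car4 and Car8, which did not pass the filter in blood, this direction was set in advance. The small counts of calls among all genes moved as follows, and the cause was not tested. In colon the 1 SDE gene became 6 under DESeq2, while limma-voom gave 0 and the stricter adjusted p of 0.01 also gave 0, and no mouse could be left out without the count falling to 0 (range 0 to 0). Blood SDE genes went from 0 to 6 with DESeq2 and to 1 with library size only, and ran from 0 to 3 without 1 mouse, with 3 without mouse 1, 1 without mouse 8 and 1 without mouse 9. Genes with a different UC effect went from 1 to 19 with DESeq2 and to 0 with the mouse number as replicate block, and ran from 1 to 2 without 1 mouse, with 2 without mouse 8.

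Of the uncalled member values, 90 of 98 in colon, 48 of 55 in blood and 45 of 56 for the difference of effects kept their direction. Car2 and Car13 in colon, and Car2 in the difference of effects, kept it throughout. With limma-voom, Car1 in the colon became 0.15 and Car13 in blood -1.80, and the difference of effects became 0.17 for Car1 and 1.63 for Car13. That difference became 0.18 for Car1 with library size only, and 0.14 for Car1 and 0.43 for Car13 with the replicate block. Without 1 mouse, colon log2FC ran from -0.97 to 0.78 for Car1, 0.28 to 1.51 for Car2, -0.31 to 2.30 for Car3, -0.26 to 0.83 for Car4, -2.48 to 2.89 for Car8 and -3.24 to 0.39 for Car12. In blood it ran from -0.25 to 0.11 for Car1, -0.56 to 0.25 for Car2, -0.34 to 0.10 for Car12 and -6.13 to 0.78 for Car13. The difference of effects ran from -0.99 to 1.03 for Car1, 0.13 to 1.61 for Car2, -3.36 to 0.64 for Car12 and -1.32 to 7.01 for Car13.

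By longest transcript, Car13 ranked 6, Car3 ranked 4, Car8 ranked 7 and Car12 ranked 5 per length in colon. On the authors' normalized counts, 2 of the 3 closest genes were shared for Car1 and Car3 in colon and for Car2 in blood, and 3 of 3 for the others. The block took the calls between colon and blood from 13604 to 12889 and changed no member's call.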
